A study of Mus musculus with 14 samples.

Results

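Cadherins and non-clustered protocadherins are calcium-dependent adhesion proteins of the cell surface, and the deposited H3K27me3 peaks at their genes were compared between control and NeuID knockdown neurons. Members were chosen by name and position. Every protein-coding gene whose mouse symbol is Cdh or Pcdh followed by a number was taken, and every listed peak that overlapped such a gene or the 5 kb on either side of it was counted. The rule gave 34 genes, 23 cadherins and 11 protocadherins, and 100 of the 23668 listed peaks. Of these genes 20 held a listed peak (15 cadherins and 5 protocadherins) and 14 held none.

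The study treated primary hippocampal neurons from CD1 mouse embryos, labelled wild type, with gapmers carried in lipid nanoparticles. A gapmer is a short antisense oligonucleotide with modified ends whose pairing leads to cleavage of the target RNA. The control cultures received a negative-control gapmer and the knockdown cultures a gapmer against NeuID, a long noncoding RNA of neurons. Both groups therefore carried nanoparticles and a gapmer. The labels list 6 control and 6 knockdown chromatin immunoprecipitation libraries made with an antibody against H3K27me3, and 1 input library per group, which was not used here. The comparison asks where this histone mark differed after knockdown of NeuID.

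H3K27me3 is written by Polycomb repressive complex 2, and it is found over genes held silent in a given cell type, often as broad domains over CpG-rich starts. Classical cadherins bind the same type of cadherin on a neighbouring cell and link it to actin through catenins, so the set a cell expresses helps decide which cells it adheres to. Neurons use some of them, such as N-cadherin, at synapses, and keep those of epithelia, vessels or muscle silent. Protocadherins share the repeated extracellular domains but not the catenin-binding tail, and several guide axon and synapse formation.

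Sequence is shown for 6 member peaks as examples of peaks rich and poor in CpG, with nearly equal, lower and higher knockdown means. Each is the central stretch of 300 bases of one peak, from GRCm38, forward strand, with every CG in capitals. The first is the peak just inside the start of Cdh22, whose group means were nearly equal. The second is the strongest peak within Cdh23. The next, upstream of Cdh6 and within Cdh18, had lower knockdown means, and the last, within Cdh13 and Cdh20, had higher ones.
Cdh22 near the start, chr2:165233892-165234191: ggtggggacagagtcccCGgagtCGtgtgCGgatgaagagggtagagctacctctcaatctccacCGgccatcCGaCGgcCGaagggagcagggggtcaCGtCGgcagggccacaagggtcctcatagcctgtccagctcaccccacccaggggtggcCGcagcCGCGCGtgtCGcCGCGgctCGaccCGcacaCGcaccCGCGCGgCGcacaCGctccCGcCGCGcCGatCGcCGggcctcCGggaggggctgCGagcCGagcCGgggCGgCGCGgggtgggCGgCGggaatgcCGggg
Cdh23 within the gene, chr10:60686160-60686459: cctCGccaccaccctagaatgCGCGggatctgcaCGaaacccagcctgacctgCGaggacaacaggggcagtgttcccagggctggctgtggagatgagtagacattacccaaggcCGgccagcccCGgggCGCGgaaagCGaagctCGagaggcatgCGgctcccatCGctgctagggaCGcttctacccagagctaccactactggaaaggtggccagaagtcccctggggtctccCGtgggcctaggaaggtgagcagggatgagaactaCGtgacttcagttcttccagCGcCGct
Cdh6 upstream of the start, chr15:13174080-13174379: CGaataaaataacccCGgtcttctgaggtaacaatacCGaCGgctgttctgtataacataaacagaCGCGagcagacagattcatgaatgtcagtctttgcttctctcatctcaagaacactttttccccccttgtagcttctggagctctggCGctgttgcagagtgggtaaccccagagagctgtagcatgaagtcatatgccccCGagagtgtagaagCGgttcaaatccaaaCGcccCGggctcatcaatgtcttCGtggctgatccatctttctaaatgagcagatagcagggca
Cdh18 within the gene, chr15:22564707-22565006: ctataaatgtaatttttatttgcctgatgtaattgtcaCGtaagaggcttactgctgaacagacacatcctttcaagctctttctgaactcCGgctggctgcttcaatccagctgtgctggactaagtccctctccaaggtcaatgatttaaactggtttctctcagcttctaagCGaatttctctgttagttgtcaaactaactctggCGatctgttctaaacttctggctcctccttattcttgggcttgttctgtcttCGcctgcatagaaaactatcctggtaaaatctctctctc
Cdh13 within the gene, chr8:119154207-119154506: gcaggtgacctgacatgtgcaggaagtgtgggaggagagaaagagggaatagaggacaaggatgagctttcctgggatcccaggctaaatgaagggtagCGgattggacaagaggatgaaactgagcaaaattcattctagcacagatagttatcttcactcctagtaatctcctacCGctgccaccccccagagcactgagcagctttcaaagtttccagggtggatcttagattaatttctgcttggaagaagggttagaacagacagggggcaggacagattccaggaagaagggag
Cdh20 within the gene, chr1:104985394-104985693: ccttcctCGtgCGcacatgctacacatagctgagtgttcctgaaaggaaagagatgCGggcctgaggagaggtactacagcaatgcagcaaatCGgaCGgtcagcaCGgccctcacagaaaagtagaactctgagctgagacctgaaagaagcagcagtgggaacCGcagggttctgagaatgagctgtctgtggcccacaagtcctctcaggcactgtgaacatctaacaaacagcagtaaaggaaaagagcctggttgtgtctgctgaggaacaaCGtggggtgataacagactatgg
These stretches held 40 CG in Cdh22, 18 in Cdh23, 12 in Cdh6, 5 in Cdh18, 2 in Cdh13 and 8 in Cdh20. Over the 19162 listed peaks of at least 300 bases on the chromosomes the median was 4. Of them 0.464% held as many as the Cdh22 stretch, 8.58% as many as Cdh23 and 80.8% as many as Cdh13. None of the 6 stretches overlapped an annotated untranslated region. Promoter windows running from 250 bases before to 50 after a start were taken from RefSeq (GRCm38) for 22 of the 34 genes. No listed peak overlapped any of them, and the share of all such windows that a listed peak overlaps was not computed. The genes not in that table were Cdh1, Cdh2, Cdh3, Cdh4, Cdh5, Cdh11, Cdh13, Cdh16, Cdh17, Cdh19, Pcdh1 and Pcdh12. They include Cdh1 and Cdh3, whose starts were covered by listed peaks.

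The values are the authors' group means per peak, on the log2 scale of normalized reads, with no value per library. The authors' own comparison of each peak was not used. No SD, n or test therefore accompanies any value, and no difference between groups was set against the spread between cultures here. A difference is the knockdown minus the control mean, and a peak is counted as lower or higher here when that difference passes 1 on the log2 scale (2 times). As background, 20.6% of all listed peaks were lower by this limit and 20.4% were higher. A group mean of 1 read or less is listed at 0, which was so for the control in 5 member peaks and for the knockdown in 3. The overall means were averages over 6 control and 5 knockdown libraries, although the labels list 6 of each. Because cultures were measured in bulk, a lower mark per cell and fewer cells carrying it cannot be told apart. H3K27me3 gives no expression level with which to check the cell type. Of the marker genes looked at, 6 of 6 for lineages outside the brain, 4 of 4 for oligodendrocytes, 3 of 3 for endothelium, 4 of 8 for neurons, 1 of 4 for astrocytes and 1 of 3 for microglia held a listed peak. Over all protein-coding genes, 28.0% held a listed peak. Among neuron markers, Rbfox3 and Slc17a7 held 13 peaks each. How other cells in the cultures bear on the values below was not tested.

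The cadherin and protocadherin peaks were divided between both directions. Of the 100 peaks 26 were lower in the knockdown, against the background of 20.6%, and 20 were higher, against 20.4%. With the 8 peaks that had a group listed at 0 left out, 23 of 92 were lower and 15 higher. In the whole list 777 peaks were at 0 in the control and 794 in the knockdown. The background without such peaks was not computed, so the counts of the 92 have no like share beside them. The median difference was -0.18 (quartiles -1.04 and 0.65), beside -0.019 (quartiles -0.80 and 0.77) over all listed peaks. Without the 31 peaks of Cdh23 the median of the other 69 was -0.43, and over the 86 peaks that overlap gene bodies, with the flanks left out, it was -0.044. Summed over the member peaks, the means came to 1161 reads in the control and 1045 in the knockdown, a log2 ratio of -0.15. The same sums over all listed peaks had a ratio of -0.043. The sums of the cadherin peaks were 1119 and 986 reads, a ratio of -0.18, and those of the 8 protocadherin peaks were 41.8 and 58.9 reads, a ratio of 0.50. The median difference thus depended on which genes and flanks were counted. The direction of the sums was not the same in cadherins and protocadherins, but the protocadherin sum rested largely on Pcdh15. That gene held 13.2 control and 31.8 knockdown reads. Pcdh7 and Pcdh9 also had higher knockdown sums, while Pcdh8 and Pcdh19 had lower ones.

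Most of the signal came from few genes. Cdh3, Cdh4, Cdh13, Cdh22 and Cdh23 held 73 of the 100 peaks and 75.4% of the control reads. To describe a gene, the mean reads of its peaks were summed in each group, and the level difference of the gene is the log2 ratio of the knockdown sum to the control sum. A ratio was available for 19 genes, since the only Cdh20 peak was listed at 0 in the control. The knockdown sum was below the control sum in 15 of the 19 genes, beside 49.4% of the 5865 protein-coding genes with both sums. Past the limit of 1, 3 genes were lower (Cdh5, Cdh6 and Cdh18), where the background was 12.4%, and 2 were higher (Pcdh9 and Pcdh15), where it was 15.9%. The median level difference was -0.29 in the member genes and 0.019 in all. In the 5 genes with 6 or more peaks every ratio was below 0, but the lowest was -0.29, and 62.5% of the 520 protein-coding genes with as many peaks also lay below 0.

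**Figure D1:**
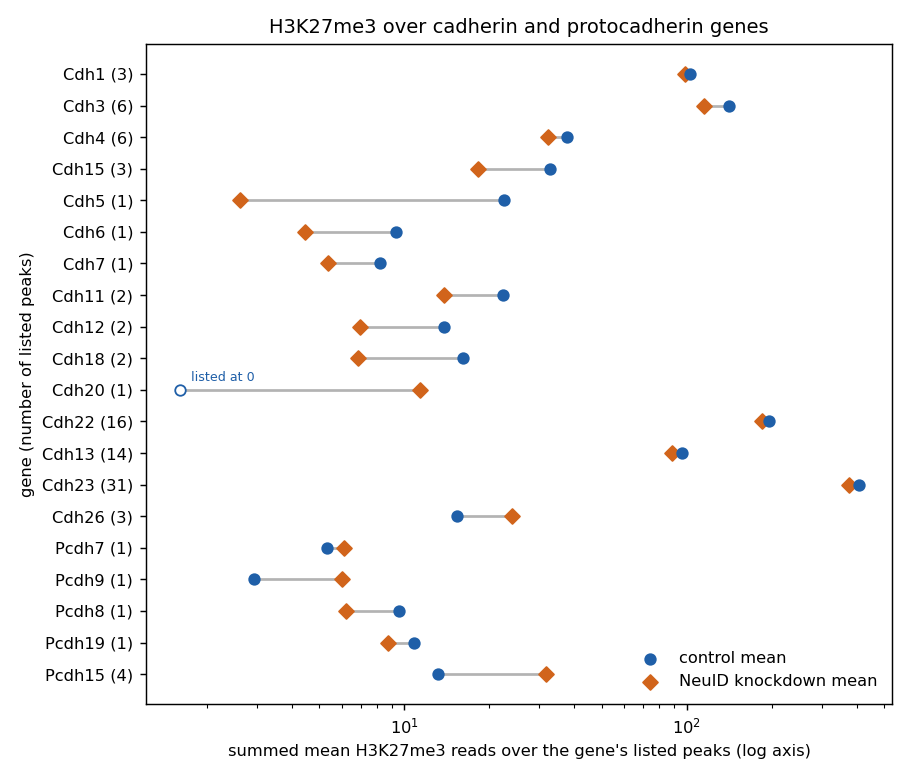
Summed mean H3K27me3 reads (log axis) over the listed peaks of each of the 20 genes that held one, with the number of peaks in brackets. Circles are the authors' control means and diamonds their NeuID knockdown means, without error bars because only group means were used. Control and knockdown nearly coincide in Cdh1, Cdh22, Cdh13 and Cdh23, while the wide gaps belong to genes with 1 to 4 peaks such as Cdh5, Cdh18 and Pcdh15. The open circle marks the Cdh20 control, listed at 0 and drawn at the left edge.

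Type I cadherins are the classical adhesion proteins, and 4 of the 5 held a listed peak. Cdh1, E-cadherin of epithelial junctions, carried a domain of 2760 bp over its start (chr8:106602866-106605625). This domain had a control mean of 6.52 and a knockdown mean of 6.50, the highest of all member peaks in both groups and practically the same in each. Per kb of peak the Cdh1 domain held 33.3 reads in the control and 32.8 in the knockdown. The other Cdh1 peaks were weak and lay within introns. One, less than 3 kb beyond the start, had means of 1.80 and 2.65, and the other, near the far end of the gene, had 2.89 and 0.56. Summed over the gene, 103 control reads stood beside 98.3 knockdown reads, a level difference of -0.064.

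Cdh3, P-cadherin of placenta and skin, lies just before Cdh1 on chromosome 8 and had a like arrangement. Its start was covered by a domain of 2362 bp (chr8:106509875-106512236) with means of 6.40 in the control and 6.02 in the knockdown, a difference of -0.38. When all listed peaks were divided by strength, the log2 of the mean of both groups' reads, into 5 classes of equal size, 32.1% of the peaks in the same class had a difference as low. The 3 smaller peaks upstream of the domain had differences of -0.75, -1.15 and -0.81, and the 2 downstream had differences of 0.46 and 1.92. The last of these, 4139 bp beyond the start, had means of 1.79 and 3.71 and was among the 3 with the highest differences of the 92 member peaks with both groups above 0. The upstream peaks and the domain also fall in the window of the neighbouring gene 6030452D12Rik. Summed over its 6 peaks, Cdh3 held 141 control reads and 115 knockdown reads, a level difference of -0.29. With the peaks shared with 6030452D12Rik left out, only the 2 downstream peaks remained and the level difference was 1.02.

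**Figure D2:**
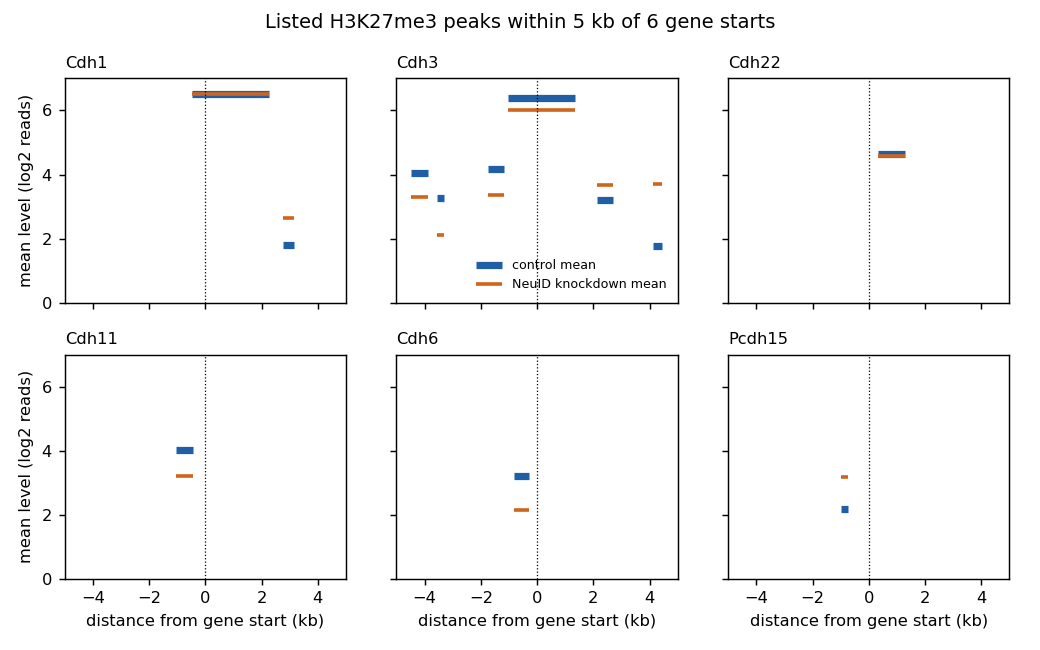
Listed peaks within 5 kb of the starts of 6 genes, drawn at their width (x axis, distance from the gene start in kb, in the direction of the gene) and at their log2 mean (y axis). Wide bars are control means and thin bars NeuID knockdown means. The domains over Cdh1 and Cdh3 lie above 6 in both groups. The Cdh11 and Cdh6 peaks before the start have lower knockdown means, and the weak Pcdh15 peak has a higher one.

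Cdh4, R-cadherin of retina and developing brain, had a different pattern. Its 6 peaks were short and scattered through introns from 63392 to 420207 bp beyond the start, with means no higher than 3.60 in either group. One was listed at 0 in the knockdown with a control mean of 3.60, and another at 0 in the control with a knockdown mean of 3.09. Of the others, 1 was lower and 1 higher past the limit, and the sums of 37.6 and 32.1 reads gave a level difference of -0.23. Cdh15, M-cadherin of muscle precursors, held 3 peaks. Its strongest lay just beyond the gene's end, with means of 4.06 and 2.92, a difference of -1.13. The one upstream had means of 3.49 and 2.29, and the one over a coding exon had 2.27 and 2.51. The gene's sum was 32.7 reads in the control and 18.2 in the knockdown, a level difference of -0.85. Without the flanks only the coding-exon peak remained and the level difference was 0.24. All 3 Cdh15 peaks also fall in the window of Gm20388, and the strongest lies within 1 kb of a start of Gm45894. Cdh2, N-cadherin, the classical cadherin of neurons, held no listed peak.

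Type II cadherins are close relatives of the classical ones, many of them expressed in subsets of neurons, and 8 of the 13 held a peak. Cdh5, the VE-cadherin of blood vessel endothelium, showed the widest gap of any member gene with both groups above 0. Its single peak over a coding exon (chr8:104141853-104142774) had a control mean of 4.49 and a knockdown mean of 1.39, or 22.5 and 2.62 reads, a difference of -3.11. In the same strength class 1.96% of all listed peaks had a difference as low. Among the endothelial markers Pecam1, Kdr and Cldn5, the gene ratios were -0.014, 0.46 and 0.033.

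Single peaks near a start separated Cdh6 and Cdh11. Cdh6, known from kidney and neural crest, had one peak 290 bp before its start (chr15:13173965-13174494) with means of 3.22 and 2.15, a difference of -1.07. In its strength class 20.5% of listed peaks lay as low. Cdh11, the osteoblast cadherin of mesenchyme, had a peak 448 bp before its start (chr8:102786090-102786702) with means of 4.02 and 3.22, a difference of -0.80, and a weak intronic peak with 2.60 and 2.17. The level difference of Cdh11 was -0.69.

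The cadherins expressed in brain, Cdh7, Cdh12 and Cdh18, had 1 or 2 weak peaks each. In Cdh7 a peak 1197 bp upstream of the start had means of 3.03 and 2.42. The Cdh12 peaks lay deep within introns, one with 3.22 in the control and 0.24 in the knockdown, the other with 2.15 and 2.53, and the gene's level difference was -0.98. In Cdh18 the stronger peak (chr15:22564585-22565129, printed above) had means of 3.42 and 1.83, a difference of -1.59 that 12.1% of its class matched or passed. The weaker Cdh18 peak had 2.43 and 1.72, and the gene's level difference was -1.23. The RefSeq promoter windows of Cdh12 and Cdh18 lie beyond both listed peaks of each gene. By the GENCODE genes used for positions here, Cdh12 spans 1140 kb and Cdh18 925 kb. None of the 3 genes held a peak within 1 kb of a GENCODE start. In Cdh20, a cadherin of neural crest, the direction was opposite: its intronic peak was listed at 0 in the control and at 3.51 in the knockdown.

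Cdh22, a cadherin of pituitary and brain, stood out from the other type II genes by its 16 peaks over 123 kb, a number that placed it 44th among the 6154 protein-coding genes with a peak. The peak nearest its start (chr2:165233575-165234509) began 344 bp inside the gene, had 10.7 CG per 100 bp and means of 4.65 and 4.59. A peak at an internal start (chr2:165180958-165181479) had 4.00 and 4.01. At the gene's far end a peak of 1363 bp over a coding exon (chr2:165111385-165112747) had 5.11 and 4.53. The differences of these 3 peaks were -0.061, 0.0093 and -0.58. Between them lay weak intronic peaks with wide differences in both directions. One (chr2:165216057-165216548) had 0.72 in the control and 3.96 in the knockdown, the highest difference among member peaks with both groups above 0, and another (chr2:165228892-165229380) had 3.66 and 0.24, the lowest. In all 1 Cdh22 peak was lower and 4 were higher past the limit. The sums, 195 reads in the control and 184 in the knockdown, nearly balanced, with a level difference of -0.083.

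Cdh23 held more peaks than any other member. It encodes a long cadherin that, with Pcdh15, forms the tip links of sensory hair cells. Its 31 peaks over 394 kb placed it 14th among protein-coding genes with a peak and made up 35.0% of the family's control reads. The strongest (chr10:60685391-60687228) spans 1838 bp, lies 29 bp from an internal start, 9262 bp into the gene, and had means of 6.10 and 5.47. In reads this is 68.4 against 44.2, a difference of -0.63, and 20.5% of its class lay as low. A second wide peak in an intron (chr10:60585553-60587040) had 5.04 and 5.05, and another (chr10:60346200-60347635), which also lies within 1 kb of a start of Vsir, had 4.76 and 4.80. Of all 31 peaks, 8 were lower and 5 higher past the limit, with a median difference of 0.014. The lowest with both groups above 0 (chr10:60613240-60613604) had 3.64 and 0.30. A stronger intronic peak (chr10:60415264-60416033) had 4.38 and 2.32, a difference of -2.06 that 1.56% of its class matched or passed. One intronic peak was listed at 0 in the control beside 3.58 in the knockdown, and one at 0 in the knockdown beside 3.46 in the control. The sums of 406 and 375 reads gave a level difference of -0.11.

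**Figure D3:**
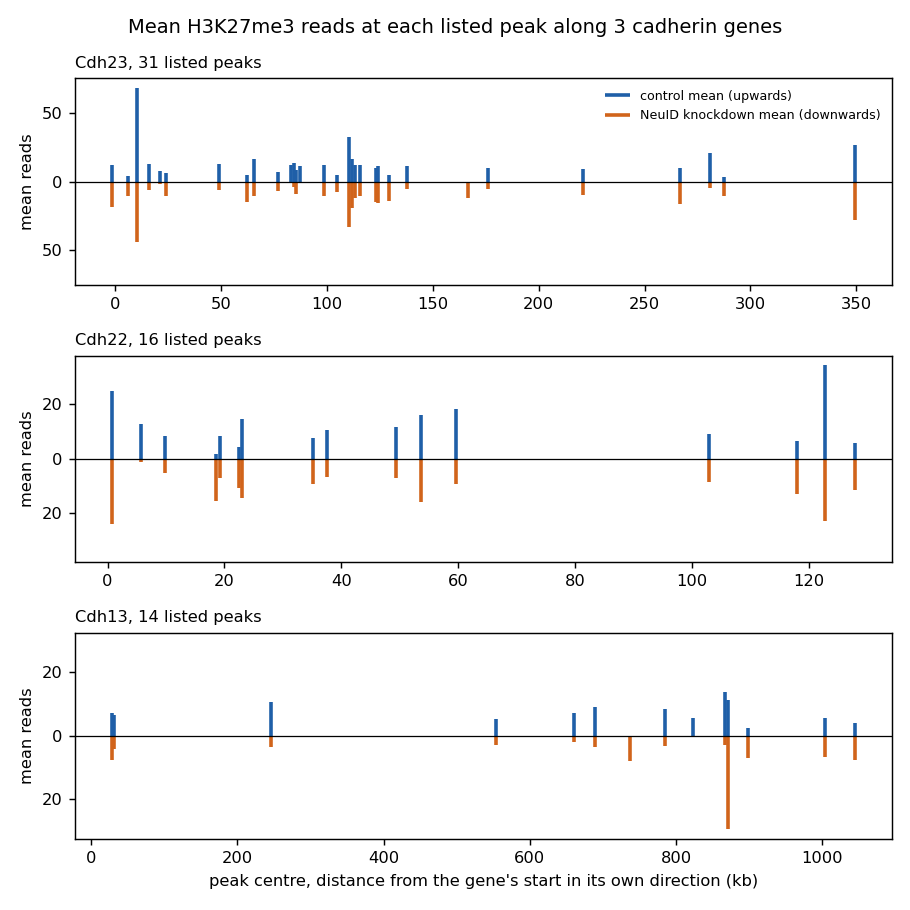
Mean H3K27me3 reads at each listed peak of Cdh23, Cdh22 and Cdh13 (y axis, control upwards and NeuID knockdown downwards) against the distance of the peak centre from the gene's start in kb. Lines are the authors' group means, without error. The tallest peaks of Cdh23 and Cdh22 are present on both sides. Peaks seen mainly on one side are mostly low. Taller exceptions are the peak near the far end of Cdh13 and a Cdh23 peak with 20.8 control and 4.99 knockdown reads.

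Cdh13, T-cadherin, which is held by a lipid anchor and lacks a cytoplasmic tail, had 14 peaks across 1041 kb. Here 6 peaks were lower and 3 higher past the limit, and the median difference was -0.68. The strongest (chr8:119153871-119154842) went against that majority. It had means of 3.50 and 4.88, or 11.3 and 29.4 reads, a difference of 1.37 that 4.41% of its class matched or passed. Another peak about 3 kb away (chr8:119150500-119151105), near an internal start, had 3.79 and 1.55, a difference of -2.24. One more near an internal start had 2.69 and 2.10. Because the strongest peak offset the weaker ones, the sums of 96.5 and 88.5 reads differed by only -0.12 on the log2 scale. Cdh26, a cadherin of epithelia, had 3 weak peaks. The strongest had means of 2.84 and 3.25, an intronic one had 1.40 and 3.42, a difference of 2.02, and the one upstream had 2.48 and 1.94. The level difference of Cdh26 was 0.64, from 15.4 to 24.0 reads. The upstream Cdh26 peak also falls in the window of Fam217b, and with it left out the level difference was 1.04.

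The protocadherins carried little listed H3K27me3. In all 5 genes held 8 peaks, with means no higher than 3.49 in either group. Pcdh7 and Pcdh9, adhesion proteins of the delta-1 group expressed in brain, had one intronic peak each. Their means were 2.41 and 2.61 in Pcdh7 and 1.56 and 2.59 in Pcdh9, a difference of 1.03 that 26.4% of its class matched or passed. In the delta-2 group, Pcdh8, which neuronal activity induces and which acts at synapses, had a peak over a coding exon with 3.25 and 2.63. Pcdh19, the X-linked gene of an epilepsy syndrome, had a peak 1045 bp before its start with 3.44 and 3.13.

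Pcdh15, the tip-link partner of Cdh23, showed the highest level difference of the family, 1.27, from 13.2 to 31.8 reads over 4 peaks. The RefSeq promoter window of Pcdh15 (chr10:73821617-73821916) lies far inside the GENCODE gene. The peak nearest the GENCODE start, 749 bp before it, had means of 2.19 and 3.18, just short of the limit. Those within introns had 2.60 and 1.12, 1.36 and 3.22, and 0 and 3.49. With the peak listed at 0 left out, the level difference of Pcdh15 was 0.64, and with flanks of 10 kb it was 0.62. The partners therefore did not show a like difference, -0.11 in Cdh23 beside 1.27 in Pcdh15, although the latter rested on few reads.

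No listed peak overlapped Cdh2, Cdh8, Cdh9, Cdh10, Cdh16, Cdh17, Cdh19, Cdh24, Pcdh1, Pcdh10, Pcdh12, Pcdh17, Pcdh18 or Pcdh20 or their flanks. They include neuronal genes such as Cdh8, Cdh9 and Cdh10, but also Cdh16 of kidney and Cdh17 of gut, so a gene of another tissue was not always listed. The family held peaks more often than protein-coding genes at large, 58.8% against 28.0%, yet its genes are long, with a median of 115 kb against 17.4 kb. Among genes of at least 100 kb, 77.8% of the 18 members and 57.0% of all held a peak. Counted per 100 kb of window, these long members had 0.940 peaks and all such genes 0.764, although the members among them were also longer, with a median of 309 kb against 168 kb. Over genes of any length the order was the other way, with 1.04 peaks per 100 kb in the members and 1.18 in all.

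Strong peaks differed less between the groups than weak ones. In the weakest of the 5 strength classes 26.95% of all listed peaks were lower and 26.87% higher past the limit, and 7 and 4 of the 19 member peaks were. In the strongest class the shares of all listed peaks were 10.4% and 8.45%, and 1 and 1 of the 19 members. The 10 member peaks with an overall mean of 4 or more lay in Cdh1, Cdh3, Cdh13, Cdh22 and Cdh23 and held 35.2% of the family's control reads. None was lower past the limit and 1, in Cdh13, was higher. Of the 3322 listed peaks as strong, with the 26 peaks on scaffolds left out, 9.00% were lower and 5.06% higher. The sums of the 10 member peaks gave a ratio of -0.13, while the other 90 member peaks, 26 lower and 19 higher, gave -0.16. The limit was thus passed more often by weak peaks, among the members as in the whole list.

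**Figure D4:**
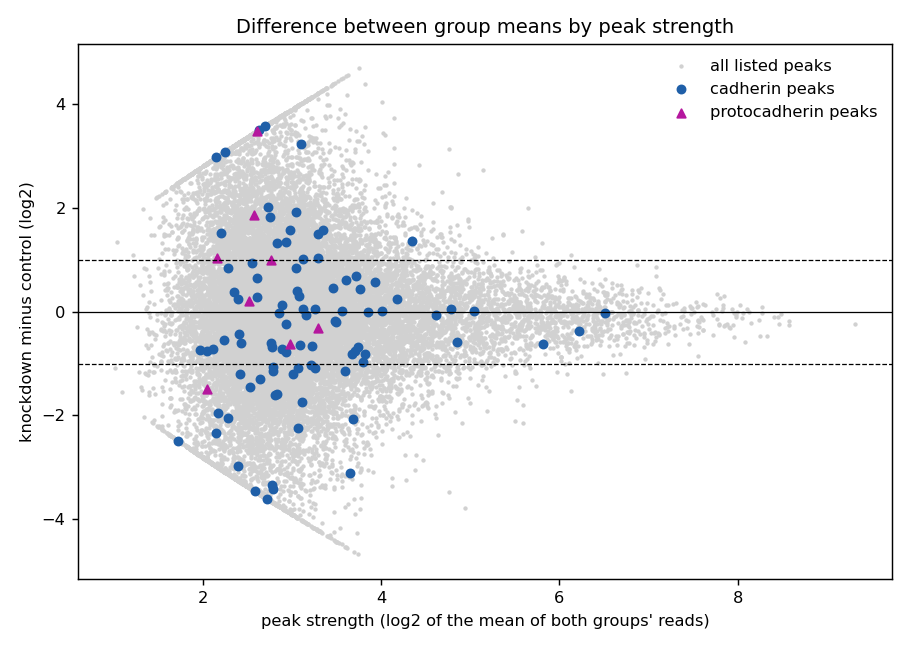
Difference between group means (y axis, knockdown minus control, log2) against peak strength (x axis, log2 of the mean of both groups' reads) for all listed peaks (grey), cadherin peaks (circles) and protocadherin peaks (triangles). Each point is one peak without error, and dashed lines mark differences of 1 and -1. The spread narrows towards strong peaks, and of the 10 member peaks with an overall mean of 4 or more only one, in Cdh13, passes a dashed line. The straight outer edges are peaks with one group listed at 0.

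Wide peaks behaved in the same way. All 6 member peaks of at least 1 kb, in Cdh1, Cdh3, Cdh22 and Cdh23, had differences between -0.63 and 0.047. Of all listed peaks this wide, 7.91% were lower and 5.08% higher past the limit. By position, 71 member peaks lay in introns, with a median difference of -0.0093, 20 lower and 18 higher. Within 1 kb of a start of their gene lay 10 peaks, of which 2 were lower (Cdh6 and Cdh13) and 0 higher, with a median of -0.49. The 8 peaks in the flank upstream, further than 1 kb from any start, also had 2 lower and 0 higher, with a median of -0.68, and 3 of them belong to Cdh3. Within 1 kb of a protein-coding start lay 11.0% of member peaks and 15.8% of all. Lower and higher shares and medians by position were not computed for all listed peaks, so these counts by position have no background. By base composition, the 16 member peaks with 3 or more CG per 100 bp had a median absolute difference of 0.48 and the other 84 a median of 0.99. The same medians over all listed peaks on the chromosomes, without those on scaffolds, were 0.54 and 0.85.

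Related genes gave the following counts past the limit, where 20.6% of all listed peaks were lower and 20.4% higher. The catenins and other cadherin partners held 12 peaks, 3 lower and 5 higher. The giant cadherins of the Fat, Dachsous and Celsr groups held 11, with 4 lower and 2 higher. Calsyntenins and cadherin-related genes held 7, with 2 each way. The desmosomal cadherins held 5, with 0 lower and 1 higher. The clustered protocadherins, whose overlapping windows share peaks, held 9, with 2 lower and 1 higher. For scale, axon guidance genes held 123 peaks, 26 lower (21.1%) and 28 higher (22.8%), with a median difference of -0.074. Collagens held 83, with 21 lower (25.3%) and 8 higher (9.64%) and a median of -0.20. The median of -0.18 over the 100 cadherin and protocadherin peaks thus lay near that of the collagens, and these differences were not tested.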

How the data were processed

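H3K27me3 ChIP-seq of mouse primary hippocampal neurons was analysed from 1 deposited table. The authors aligned single-end reads to mm10 (Bowtie2), called broad peaks (MACS2) and set the groups against each other in DiffBind. Versions, normalization, merging of peaks and input subtraction are not given in the sources used here. For each peak the authors deposited a log2 mean of normalized reads for each group and one for the whole set of libraries, and these were used. The table also holds the authors' log2 fold change, p-value and FDR of the same comparison, which were neither used nor printed. Depth per library is unknown, and no interval or test was computed here from the group means.

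Coordinates were compared with GRCm38, the assembly of mm10. Genes, and the starts to which distances refer, were those of GENCODE M21, while the promoter windows were those of RefSeq and can lie elsewhere. An overlap of 1 bp counted. Group means were taken off the log scale before summing, with a mean listed at 0 counted as 0 reads. Library weights were solved from the overall mean. Every member gene is named. Peaks described were the strongest of each gene, those within 1 kb of a start, those of at least 1 kb, and the 3 lowest and 3 highest differences with both groups above 0. Other peaks, the split at 3 CG per 100 bp and the printed sequences were picked after their values were seen. The members and lists were chosen with earlier results of these data known. Steps were tested on simulated data. Alternatives covered flanks, filters, limits, centring and gene summaries. The number of unused per-sample columns was 0. Python 3.11.15, numpy 2.4.6, pandas 2.3.3 and matplotlib 3.10.9 were used.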

Additional observations from a re-analysis of the deposited data

How the results depend on the processing

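Of 37 recomputed counts and medians 24 kept within 1.5 times the reported count, or within 0.1 of the reported median. Keeping the 10 peaks whose overall mean reached 4 left 0 lower and 1 higher peaks, 0 lower genes and a median difference of -0.0058. Restricting to the 6 peaks of at least 1 kb left 0 lower and 0 higher peaks and 0 lower genes. A limit of 1.5 times (0.58 on the log2 scale) gave 44 lower member peaks, where 30.9% of all listed peaks were lower. It gave 27 higher member peaks, where 29.9% of all listed peaks were higher. The median difference became -0.044 for gene bodies without flanks, -0.061 without peaks shared with another protein-coding gene, and -0.43 without Cdh23, the gene with the most peaks. Summarising a gene by the median of its peaks, or by its strongest peak, gave 5 lower genes in place of 3. The cause of these shifts was not tested, beyond the smaller number of peaks that each restriction leaves. Of 138 recomputed gene values 133 kept their sign, and no gene past the limit changed sign. The sign changes fell in Cdh3, Cdh13, Cdh15 and Cdh23. In Cdh5, Cdh6 and Pcdh9 the same 1 peak gave every value, so their kept sign says nothing about these choices. No paired analysis was possible because only group means were used, although the labels give both groups the same replicate numbers. For the same reason no library could be left out. Few reads limit the weak peaks most.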
